A study of Mus musculus with 9 samples.

Results

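A set of 8 marker genes of the mesothelium, Msln, Upk3b, Upk1b, Wt1, Lrrn4, Krt19, Gpm6a and Bnc1, was followed in mouse lung after silica dust and after silica with the plant compound atractylenolide III. They were taken by gene symbol from a named list of markers, and all 8 were among the 55359 genes of the deposited table. Of the 15459 genes that reached 1 FPKM (fragments per kilobase per unit of depth, a level corrected for gene length and for the size of the library) in at least 3 libraries, 7 were members. Wt1 fell short of that level and was tested in a wider set of 18268 genes.

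All animals were males of the strain C57BL/6J, aged 6 to 8 weeks, in 3 groups of 20. The Control group had saline placed in the trachea, and the Silica group had saline with 5 mg of silica. The Silica + ATL-III group had the same silica and, in addition, atractylenolide III at 30 mg/kg/d into the peritoneal cavity. Lungs were taken on day 28, and poly(A) RNA of whole lung was sequenced from 3 libraries per group, which hold 16047175 to 17792481 counts each. Whether a library stands for 1 mouse is not stated, so every p-value here is set against the spread among libraries, part of which may be technical.

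The mesothelium is the single layer of flat cells that covers the lung as visceral pleura and also lines the chest wall, the pericardium and the peritoneum. Its cells carry both epithelial keratins and mesenchymal features, glide on a glycoprotein film, and in the embryo can delaminate under the control of WT1 to give rise to mesenchymal cells. In whole lung it is a minor compartment, so its transcripts are read against a large background of other cells. In these bulk samples fewer mesothelial cells and less RNA per mesothelial cell cannot be told apart.

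The members fall into 4 roles. Msln (mesothelin, a GPI-anchored surface protein that binds the mucin MUC16), Upk3b and Upk1b (uroplakins, membrane proteins first known from the bladder lining) belong to the cell surface. Lrrn4 (a leucine-rich repeat membrane protein) and Gpm6a (a tetraspan membrane glycoprotein of the proteolipid family) are membrane proteins shared with neural tissue. Wt1 (the Wilms tumour zinc finger protein) and Bnc1 (the zinc finger protein basonuclin) are transcription factors, and Krt19 is a keratin of simple epithelia. Krt19 is also made by airway epithelium and Gpm6a by alveolar type 1 cells, so these 2 genes are less specific in lung than the others.

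In the GENCODE annotation of build GRCm38 the members lie on 7 chromosomes, all as protein-coding genes. Msln spans chr17:25748613-25754378 on the minus strand, Upk3b chr5:136038496-136046487 on the plus strand, and Upk1b chr16:38773184-38800328 on the minus strand. Wt1 (chr2:105126529-105173616, plus) and Lrrn4 (chr2:132868305-132880891, minus) share a chromosome without being neighbours. Krt19 lies at chr11:100140810-100148665 (minus), Gpm6a at chr8:54954843-55060871 (plus) and Bnc1 at chr7:81966672-81992292 (minus). Gpm6a has 5 overlapping gene models of a provisional class on its own strand and Bnc1 has 1 pseudogene on the opposite strand, and reads there could be assigned either way because nothing in the sources says whether counting used the strand. The other 6 members overlap no annotated gene.

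Promoters, taken from RefSeq on GRCm38.p6 as 250 bases before to 50 bases after the start of transcription, were held for 4 of the 8 members. Those of Upk3b, Lrrn4 and Bnc1 are shown because the levels of these genes rank the libraries of each group alike, as described further on. Capitals mark CATTCC or its reverse complement GGAATG, the core letters of the site of TEAD factors, which act with YAP and TAZ in mesothelial and many other cells.
Upk3b: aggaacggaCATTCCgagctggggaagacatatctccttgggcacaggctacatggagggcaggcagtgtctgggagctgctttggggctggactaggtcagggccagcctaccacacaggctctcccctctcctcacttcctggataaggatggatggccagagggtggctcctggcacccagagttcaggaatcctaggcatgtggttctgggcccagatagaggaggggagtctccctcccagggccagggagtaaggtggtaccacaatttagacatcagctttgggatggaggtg
Lrrn4: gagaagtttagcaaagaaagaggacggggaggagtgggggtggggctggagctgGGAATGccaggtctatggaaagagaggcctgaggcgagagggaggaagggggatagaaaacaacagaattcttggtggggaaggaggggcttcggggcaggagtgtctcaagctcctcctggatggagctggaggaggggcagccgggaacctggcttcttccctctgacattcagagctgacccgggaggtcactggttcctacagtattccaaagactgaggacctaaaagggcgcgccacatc
Bnc1: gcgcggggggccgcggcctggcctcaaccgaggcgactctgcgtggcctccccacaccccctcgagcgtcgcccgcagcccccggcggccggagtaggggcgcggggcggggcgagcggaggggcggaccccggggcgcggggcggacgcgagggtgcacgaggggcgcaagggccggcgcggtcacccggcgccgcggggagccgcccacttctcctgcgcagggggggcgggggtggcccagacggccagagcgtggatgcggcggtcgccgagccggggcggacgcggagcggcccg
The Upk3b sequence (chr5:136038246-136038545, plus strand) has the motif at position -241 from the start, and the Lrrn4 sequence (chr2:132880813-132881112, minus strand) has it on the opposite strand at position -196. The Bnc1 sequence (chr7:81992250-81992549, minus strand) has none and has a GC content of 83.3%, against 58.7% for Upk3b and 58% for Lrrn4. Of the 2 starts listed for Gpm6a, 1 has the motif, at position -125. Counting both strands, 4817 of 32851 promoters of this length (14.7%) hold that motif. Promoters were also held for 13 of 18 other genes known from mesothelium, and among these Cldn15 alone had it. The letters TATAAA were found in 13.6% of all promoters and in 1 of the Gpm6a promoters. GCGTGGGAG, a site reported for WT1, was found in 0.472% of all promoters and in none of those of the 4 members. A match is a match of letters in this window and says nothing of binding.

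Averaged over the 9 libraries, Krt19 (54.4 FPKM) and Gpm6a (45.9) were the most abundant members, followed by Upk1b (25.7), Msln (21.7) and Upk3b (17.95). Lrrn4 followed at 4.25, and the transcription factors were the least abundant, Bnc1 at 0.843 and Wt1 at 0.653 FPKM. Within the Control group Krt19 and Gpm6a overlapped each other, as did Upk1b with Upk3b, Upk3b with Msln, and Bnc1 with Wt1. All 8 had counts in every library, which in whole lung does not show that the reads came from mesothelium. Krt19 and Gpm6a are both also made by other lung cells. Of the tested members they were the least like the mean library profile (r = -0.01 and 0.393), as given further on. Whether the source of their transcripts bears on this was not tested. Of 18 other genes known from mesothelium, 15 reached the level for testing, while Calb2 (calretinin, a marker used for human mesothelium) was listed at 0 to 0.07 FPKM.

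Msln read 19.3, 17.8 and 22.9 FPKM in Control libraries 1, 2 and 3, 9.88, 15.96 and 12.6 in Silica, and 52.1, 30.7 and 13.8 in Silica + ATL-III. All Silica libraries lay under all Control libraries, and the Silica + ATL-III libraries ranged from the Silica level to above every Control library. The means were 20.0 ± 2.63 (SD, n = 3), 12.8 ± 3.05 and 32.2 ± 19.2 FPKM.

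Upk3b read 23.0, 21.3 and 31.2 FPKM in Control, 9.36, 16.4 and 11.7 in Silica, and 25.0, 14.9 and 8.56 in Silica + ATL-III. Silica lay wholly under Control, and Silica + ATL-III overlapped both, with library 3 lowest of all 9. Upk1b, the other uroplakin among the members, read 27.4, 30.3 and 37.1 FPKM in Control, 17.5, 23.2 and 16.7 in Silica, and 33.6, 26.2 and 19.5 in Silica + ATL-III, again with Silica wholly under Control. The means of Upk1b were 31.6 ± 4.98, 19.1 ± 3.51 and 26.4 ± 7.07 (SD, n = 3). The paralog Upk3bl, which could share reads with Upk3b, was listed at 0 to 0.28 FPKM.

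Lrrn4 read 6.49, 5.1 and 8.27 FPKM in Control, 1.98, 4.82 and 3.36 in Silica, and 4.03, 2.8 and 1.42 in Silica + ATL-III. Every silica-exposed library, with or without the compound, was under every Control library. Gpm6a read 58.6, 49.2 and 63.8 FPKM in Control, 37.7, 48.8 and 47.6 in Silica, and 40.0, 30.6 and 37.3 in Silica + ATL-III. Gpm6a too was lower in each exposed library than in each Control library, though Silica 2 and Control 2 were nearly level.

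Wt1 read 0.56, 0.68 and 1.63 FPKM in Control, 0.14, 0.41 and 0.36 in Silica, and 0.85, 0.77 and 0.48 in Silica + ATL-III, from 15 to 164 counts per library. Silica lay under both other groups without overlap, and Control 3 stood well over the rest. Its antisense neighbour Wt1os had 0 to 22 counts. Bnc1 read 0.56, 0.69 and 1.21 FPKM in Control, 0.2, 1.03 and 0.6 in Silica, and 1.99, 0.78 and 0.53 in Silica + ATL-III, and all groups overlapped.

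Krt19 read 61.5, 46.2 and 56.6 FPKM in Control, 62.8, 43.6 and 47.2 in Silica, and 58.5, 63.2 and 50.1 in Silica + ATL-III. The groups overlapped fully, with means of 54.7 ± 7.80, 51.2 ± 10.2 and 57.2 ± 6.65 (SD, n = 3). Of the 8 members Krt19 was the one whose group means lay closest together.

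**Figure D1:**
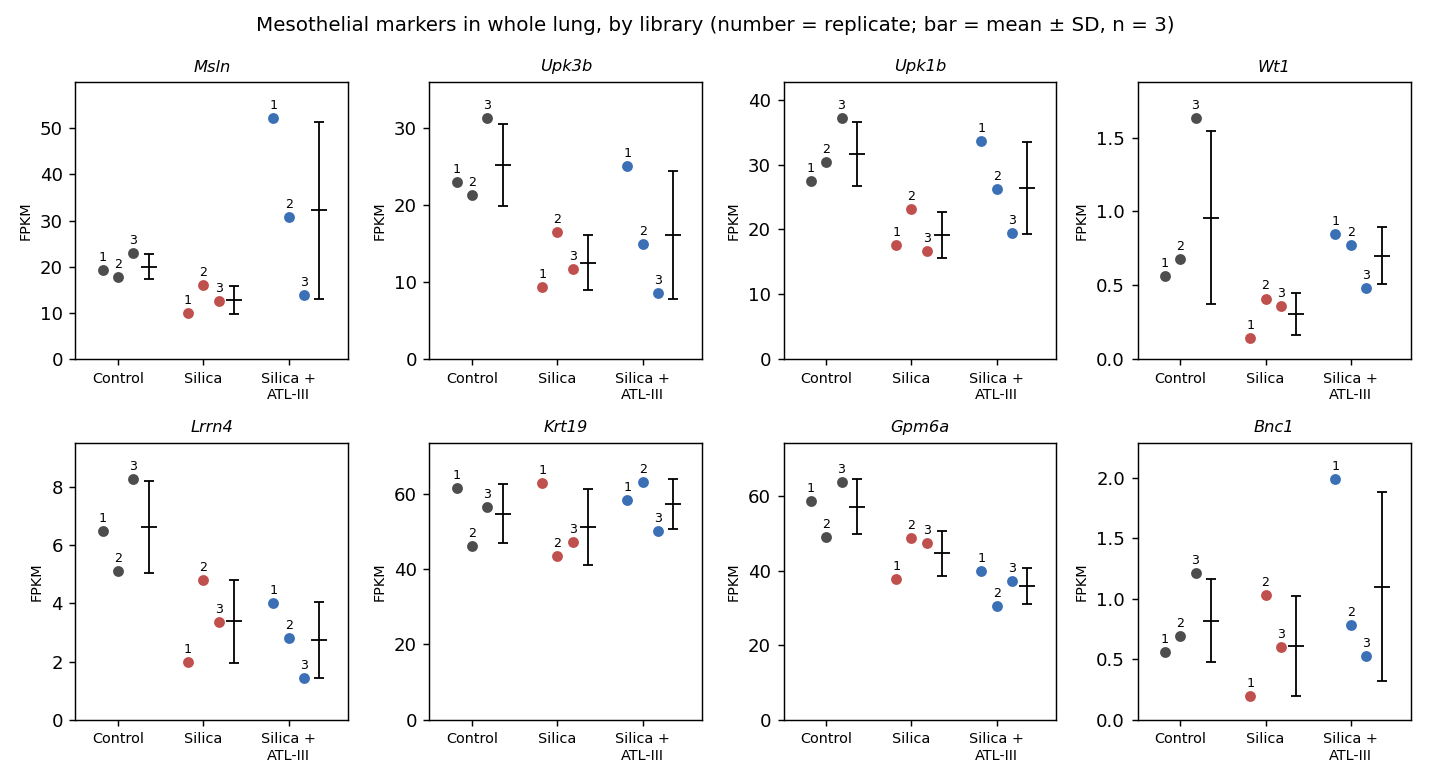
FPKM of the 8 mesothelial markers (vertical axes, each from 0) in every library of the 3 groups (horizontal axis); points are libraries with their replicate number, and bars are the mean ± SD of 3. For 6 markers all Silica points lie under all Control points, while the Silica + ATL-III points of Msln run from 13.8 to 52.1.

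In Silica against Control, the question of what dust alone did, Upk1b and Wt1 fell, and 6 of the 8 members (Msln, Upk3b, Upk1b, Wt1, Lrrn4 and Gpm6a) had every Silica library under every Control library in FPKM. Among all tested genes 28.9% showed that non-overlap. With libraries scaled by TMM, which evens out differences in composition, non-overlap was found for 4 of the 7 tested members, Gpm6a no longer among them, and for 21.7% of all tested genes. By the quasi-likelihood test of edgeR, adjusted over all tested genes after Benjamini and Hochberg, 1 of the 7 was called lower and 0 higher at an adjusted p under 0.05. Of all tested genes 16.9% were called, 7.81% lower and 9.11% higher.

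Upk1b was the member called, with a log2 fold change of -0.63 ± 0.19 (SE, adjusted p = 0.0413). Wt1, fitted with the 18268 genes kept by edgeR's filterByExpr, had a log2 fold change of -1.54 ± 0.44 (adjusted p = 0.0387), where 5.84% of genes were called lower. Both calls depended on single libraries. That of Upk1b was lost without Control 1 (adjusted p = 0.0595), Control 2 (0.0806), Control 3 (0.151), Silica 1 (0.144) or Silica 3 (0.139). That of Wt1 was lost without Control 2 (adjusted p = 0.0501), Control 3 (0.175, with a log2 fold change of -0.93), Silica 1 (0.148) or Silica 3 (0.0796).

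The members with the largest differences after Wt1 missed the threshold. The log2 fold change of Upk3b was -0.92 ± 0.31 (adjusted p = 0.0625) and that of Lrrn4 -0.88 ± 0.34 (adjusted p = 0.0940), and both passed when Silica 2 was left out (adjusted p = 0.0362 and 0.0373). Msln, at -0.55 ± 0.35 (adjusted p = 0.282), Bnc1, at -0.35 ± 0.56 (0.696), and Gpm6a, at -0.26 ± 0.14 (0.199), lay below 0 without passing. Krt19, at 0.01 ± 0.17 (adjusted p = 0.979), showed next to no difference, and its sign turned with library totals in place of TMM (-0.10). The median log2 fold change of the 7 tested members was -0.55, beside -0.01 over all tested genes.

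In Silica + ATL-III against Silica, the question of what the compound added, Msln rose and no other member passed. Its log2 fold change was 1.35 ± 0.35 (adjusted p = 0.0182), the largest among the members. Of the 7 tested members 1 was called higher and 0 lower, where 21.2% of all tested genes were called, 11.2% higher and 10.0% lower. The rise was uneven, since Silica + ATL-III 3 (13.8 FPKM) lay below Silica 2 (15.96). The call was lost without Silica 1 (adjusted p = 0.0750), Silica 3 (0.0635) or Silica + ATL-III 1 (0.0670, with a log2 fold change of 0.82), and with limma on log2(FPKM + 0.5) (1.13, adjusted p = 0.0727).

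Wt1, at 1.23 ± 0.45 (adjusted p = 0.0722 in the wider set), was the single member whose Silica + ATL-III libraries all lay above all Silica libraries. Such non-overlap was found for 15.5% of tested genes. Bnc1, at 0.89 ± 0.56 (adjusted p = 0.278), Upk1b, at 0.49 ± 0.19 (0.0841), and Upk3b, at 0.39 ± 0.31 (0.395), had positive log2 fold changes that did not pass. For Upk3b the sign turned without Silica + ATL-III 1 (-0.07). Krt19 had 0.17 ± 0.17 (0.487), Lrrn4 -0.27 ± 0.35 (0.622) and Gpm6a -0.29 ± 0.14 (0.156). The median of the tested members was 0.39, beside -0.00 over all tested genes, and this comparison shares its Silica libraries with the one before.

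In Silica + ATL-III against Control, Lrrn4 and Gpm6a fell and no member rose. Lrrn4 had a log2 fold change of -1.15 ± 0.35 (adjusted p = 0.0433) and Gpm6a of -0.55 ± 0.14 (adjusted p = 0.0184), and for both every Silica + ATL-III library was under every Control library. Of 7 tested members 2 were called lower and 0 higher, where 15.9% of all tested genes were called, 6.71% lower and 9.14% higher, and where 30.6% showed such non-overlap in FPKM. Lrrn4 lost its call without Control 1 (adjusted p = 0.0951), Control 3 (0.1496), Silica + ATL-III 2 (0.103) or Silica + ATL-III 3 (0.105), and Gpm6a without Control 1 (0.0657), Control 3 (0.0877) or Silica + ATL-III 2 (0.0699).

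The other members did not pass against Control. Msln had a log2 fold change of 0.80 ± 0.34 (adjusted p = 0.141) and passed without Silica + ATL-III 3 (1.18, adjusted p = 0.00459). Upk3b had -0.52 ± 0.31 (0.284) and passed without Silica + ATL-III 1 (-0.97, adjusted p = 0.0372), so that these 2 surface genes stood on opposite sides of 0. Bnc1 (0.54 ± 0.55), Krt19 (0.18 ± 0.17), Upk1b (-0.14 ± 0.19) and Wt1 (-0.30 ± 0.42 in the wider set) had adjusted p of 0.548, 0.499, 0.655 and 0.680. The median of the tested members was -0.14, beside -0.01 over all tested genes.

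**Figure D2:**
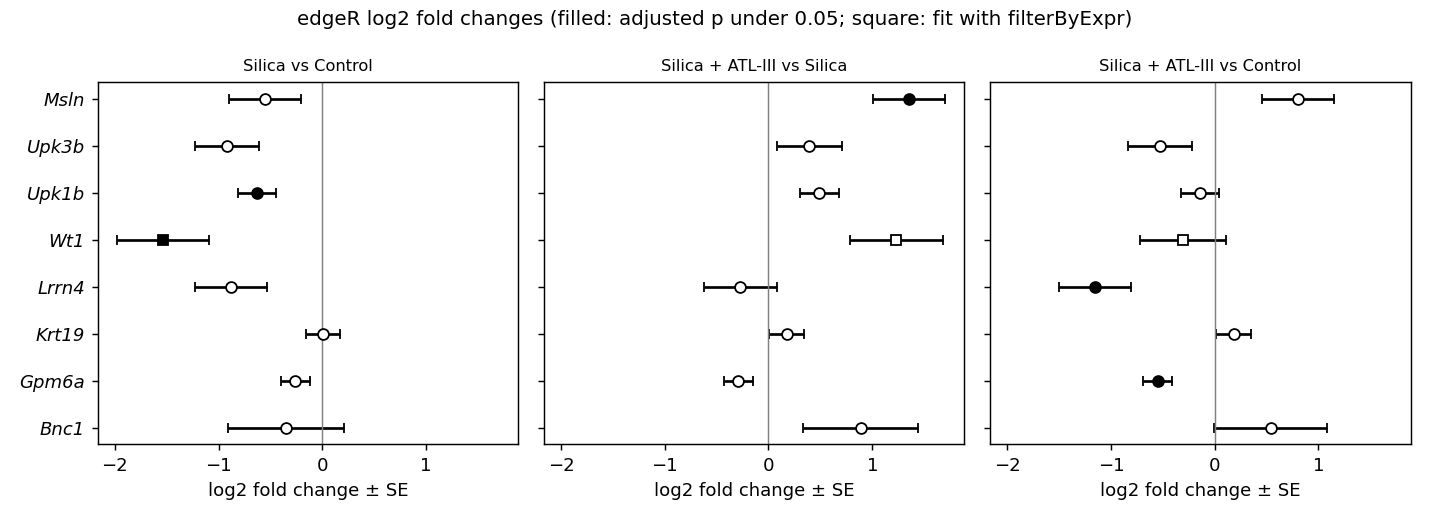
log2 fold changes with their SE (horizontal axes) of the 8 markers (vertical axis) in the 3 comparisons, from edgeR; filled symbols have an adjusted p under 0.05 and squares are from the wider gene set. Msln and Lrrn4 sit on opposite sides of 0 in both comparisons of Silica + ATL-III, at 1.35 and -0.27 against Silica and at 0.80 and -1.15 against Control.

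The members differed in how widely their libraries spread. The biological coefficient of variation that edgeR estimated over all groups was 0.460 for Bnc1, 0.295 for Lrrn4, 0.293 for Msln and 0.267 for Upk3b, each above that of at least 88.8% of tested genes. Upk1b had 0.166, Krt19 0.1498 and Gpm6a 0.129, near the median of tested genes of 0.136. Within Silica + ATL-III the coefficient of variation of the FPKM was 71.0% for Bnc1, 59.7% for Msln, 51.4% for Upk3b and 47.5% for Lrrn4, and 13.4% and 11.6% for Gpm6a and Krt19.

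The libraries of a group were ranked alike by most members. In 5 of the 8 (Msln, Upk3b, Wt1, Lrrn4 and Bnc1) Control 3 was the highest Control library, Silica 2 the highest and Silica 1 the lowest Silica library, and Silica + ATL-III 1 the highest and 3 the lowest of its group. Upk1b departed from this in its lowest Silica library alone, Gpm6a in its lowest Silica + ATL-III library, and Krt19 in the highest library of every group. This ranking was noticed in the members and is given without a test. It was found in 5 of the 18 other mesothelial genes (27.8%), namely Muc16, Aldh1a2, Nkain4, Pkhd1l1 and Cldn15, and in 455 of the 15459 tested genes (2.94%).

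**Figure D3:**
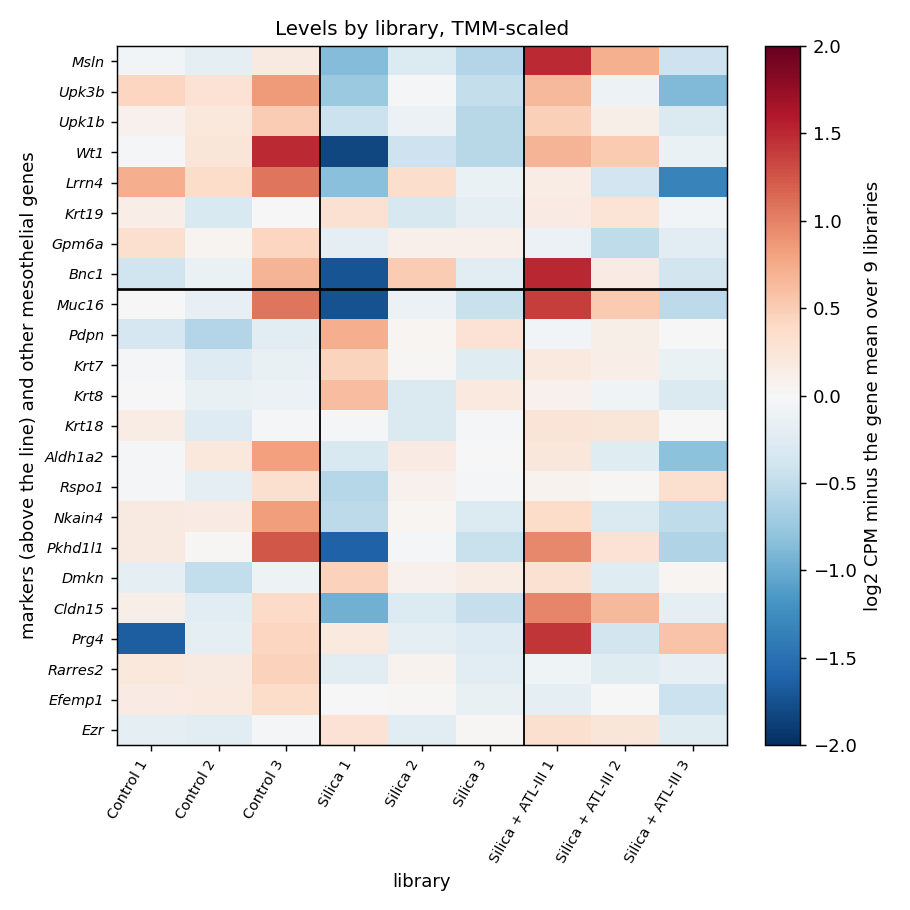
TMM-scaled log2 CPM (counts scaled to library size) of each gene minus its mean over 9 libraries (colour), for the 8 markers above the line and the 15 other mesothelial genes below it (vertical axis), by library (horizontal axis). Silica 1 is blue and Silica + ATL-III 1 red for Msln, Upk3b, Wt1, Bnc1, Muc16, Pkhd1l1 and Cldn15, whereas Pdpn, Krt7 and Krt8 are red in Silica 1.

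For Msln, Upk3b and Lrrn4, ratios within a library had a smaller spread relative to their mean than the levels did. These ratios were chosen after the values were seen and carry no test. Msln over Upk3b was 0.839, 0.836 and 0.734 in Control, 1.06, 0.971 and 1.07 in Silica, and 2.08, 2.06 and 1.61 in Silica + ATL-III. The 3 groups did not overlap, with means of 0.803 ± 0.0601, 1.03 ± 0.0545 and 1.92 ± 0.266 (SD, n = 3), although Msln itself spread from 13.8 to 52.1 FPKM in Silica + ATL-III.

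The ratio for Lrrn4 lay on the other side. Lrrn4 over Upk3b was 0.282, 0.240 and 0.265 in Control, 0.212, 0.293 and 0.286 in Silica, and 0.161, 0.188 and 0.166 in Silica + ATL-III, where all 3 libraries were under the other 6. Msln over Lrrn4 was therefore 11.2 ± 1.63 in Silica + ATL-III, 4.02 ± 0.872 in Silica and 3.08 ± 0.370 in Control (SD, n = 3), with 9.71 as the lowest Silica + ATL-III value and 4.99 as the highest Silica value. This separation depended on the gene taken as denominator. Of the 7 ratios of Msln to another member, 3 (to Upk3b, Lrrn4 and Gpm6a) had all Silica + ATL-III libraries above the other 6 libraries, and 4 (to Upk1b, Wt1, Krt19 and Bnc1) overlapped. With Gpm6a the gap was narrow, at 0.370 in Silica + ATL-III 3 against 0.362 in Control 2. Msln over Upk1b was 0.709 in Silica + ATL-III 3, within the Silica range of 0.564 to 0.753. Of the 7 ratios of Lrrn4, 4 (to Msln, Upk3b, Wt1 and Bnc1) lay wholly below and 3 (to Upk1b, Krt19 and Gpm6a) overlapped.

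Among the other mesothelial genes Cldn15, a claudin of the tight junction, stood closest to Msln in this respect. Cldn15 over Upk3b was 0.297, 0.256 and 0.265 in Control, 0.312, 0.308 and 0.370 in Silica, and 0.463, 0.618 and 0.590 in Silica + ATL-III. Muc16 over Upk3b, the mucin that mesothelin binds, was 0.0649 ± 0.00798 in Silica + ATL-III, against 0.0382 ± 0.0107 and 0.0350 ± 0.0119 in Control and Silica (SD, n = 3). Nkain4, a membrane protein that binds the sodium pump, had ratios of 1.02 ± 0.0819, 1.24 ± 0.0695 and 1.11 ± 0.288 in Control, Silica and Silica + ATL-III, and Aldh1a2 ratios of 0.412, 0.598 and 0.419. For these 2 genes the Silica + ATL-III ratios overlapped those of Control, while every Silica ratio lay above every Control ratio. The latter was not particular to them. It also held over Upk3b for Msln and for every other tested gene of this list except Muc16 and Pkhd1l1. Upk3b itself had a mean of 12.5 FPKM in Silica against 25.2 in Control, and no other denominator was used for genes outside the members.

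**Figure D4:**
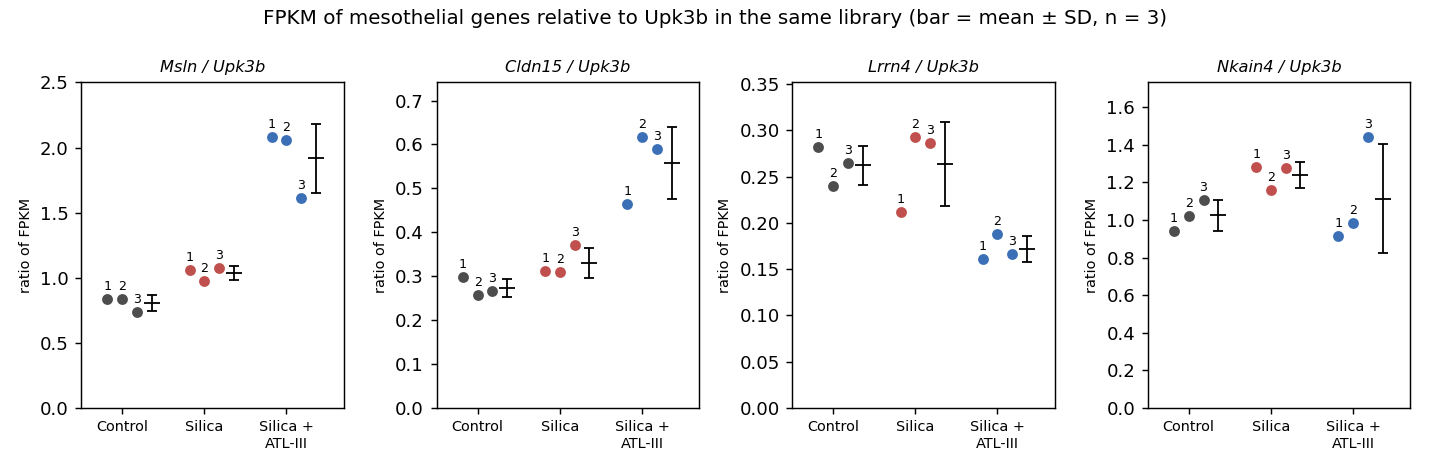
Ratio of the FPKM of Msln, Cldn15, Lrrn4 and Nkain4 to that of Upk3b in the same library (vertical axes, from 0), by group (horizontal axis); points are libraries with their replicate number and bars the mean ± SD of 3. In Silica + ATL-III the Msln and Cldn15 ratios lie above, and the Lrrn4 ratios below, those of the other groups, while the Nkain4 ratios overlap both. The Msln, Cldn15 and Nkain4 ratios of Silica lie above those of Control.

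Of the 18 other mesothelial genes, 15 were tested. In Silica against Control 2 were called higher and 1 lower (median log2 fold change -0.21). Pdpn (podoplanin, a surface mucin shared with alveolar type 1 cells and lymphatics) rose by 0.75 ± 0.16 (adjusted p = 0.0126) and Dmkn (dermokine) by 0.50 ± 0.16 (0.0495), and Rarres2 (the chemoattractant precursor chemerin) fell by 0.40 ± 0.12 (0.0391). The call of Dmkn was also lost with library totals (adjusted p = 0.0815) and with limma (0.103 at a pseudocount of 0.5). Without Control 2 Pdpn lost its call (adjusted p = 0.0504), and of the 6 fits that left out a library Dmkn and Rarres2 kept theirs in 1, that without Silica 2, with adjusted p up to 0.177 and 0.161 in the others.

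In Silica + ATL-III against Silica 1 was called higher and 0 lower (median 0.08). Cldn15 read 2.92, 5.07 and 4.34 FPKM in Silica and 11.6, 9.2 and 5.05 in Silica + ATL-III, and rose by 1.09 ± 0.28 (adjusted p = 0.0178). Its call was lost without Silica 1, Silica 3, Silica + ATL-III 1 or Silica + ATL-III 2, with adjusted p up to 0.0714, and with limma at a pseudocount of 0.1 (0.0501). Muc16 had 1.28 ± 0.49 (adjusted p = 0.0818). Against Control, 0 were higher and 2 lower (median 0.21), Rarres2 at -0.45 ± 0.12 (adjusted p = 0.0244) and Efemp1 (fibulin-3, an extracellular matrix protein) at -0.43 ± 0.12 (0.0302). Rarres2 lost this call without Control 1, Control 3, Silica + ATL-III 2 or Silica + ATL-III 3 (adjusted p up to 0.122), and Efemp1 without any Control library, Silica + ATL-III 1 or Silica + ATL-III 3 (up to 0.129).

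Relatives of the members were mostly near the floor, 3 of 13 being tested. Lrrn3, of the Lrrn4 family, read 4.33, 5.06 and 5.4 FPKM in Control, 1.9, 3.43 and 2.91 in Silica and 1.92, 2.26 and 2.54 in Silica + ATL-III. It fell by 0.75 ± 0.19 in Silica (adjusted p = 0.0232, lost without Control 2, Control 3, Silica 1 or Silica 3, up to 0.0901) and by 1.02 ± 0.19 in Silica + ATL-III against Control (0.00415, kept in 6 of 6 fits without a library). Gpm6b, the paralog of Gpm6a, fell by 0.54 ± 0.14 in Silica + ATL-III against Silica (0.0183) and by 0.52 ± 0.14 against Control (0.0255). The first call was lost without Silica 1 or Silica + ATL-III 2 (adjusted p up to 0.0675), and the second without Control 1, Control 2, Silica + ATL-III 2 or Silica + ATL-III 3 (up to 0.0899). Lrrn3, Lrrn4, Gpm6a and Gpm6b were thus all called lower in Silica + ATL-III than in Control.

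Mesothelium is a known site of retinoic acid synthesis through Aldh1a2, and of 13 genes of that pathway 7 were tested. Aldh1a2 itself did not pass in any comparison, at -0.42 ± 0.26, -0.18 ± 0.27 and -0.60 ± 0.27 (adjusted p = 0.282, 0.673 and 0.153 in the order above). In Silica 0 were called higher and 1 lower, Aldh1a1, a retinaldehyde dehydrogenase also found in other lung cells, at -0.60 ± 0.12 (0.0107). In Silica + ATL-III against Silica 2 were higher, Rara (a retinoic acid receptor, 1.35 ± 0.15, 0.000201) and Aldh1a1 (0.47 ± 0.12, 0.0203). Against Control, Rara (0.99 ± 0.14, 0.000807) and Cyp26b1 (which breaks down retinoic acid, 2.29 ± 0.56, 0.0164) were higher. Aldh1a1 lost its calls without Control 3 (adjusted p = 0.0521) and Silica + ATL-III 2 (0.0815) respectively, and the second also with only the 6 libraries compared (0.0759). Cyp26b1 lost its call without Control 1, Control 2 or Silica + ATL-III 2 (adjusted p up to 0.0618) and with limma (0.0682 at a pseudocount of 0.5), and the calls of Rara held in 6 of 6 fits without a library in both comparisons.

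By the likeness of log2 TMM-scaled CPM over the 9 libraries to the mean profile of the tested members, Upk3b (r = 0.960) and Upk1b (0.913) were the members closest to it and Krt19 (-0.01) the farthest, with Bnc1 (0.853), Msln (0.798), Lrrn4 (0.796) and Gpm6a (0.393) between. Each tested member is itself part of that mean, so its r has a built-in share that genes outside the set lack. The 6 most similar genes outside the set were Asb1 (0.974), Gm41381 (0.967), Spata18 (0.966), Spg11 (0.964), Igfbp5 (0.960) and Lama5 (0.959). The gene nearest to each member was Gm20186 for Msln (0.971), Cdkl3 for Upk3b (0.971), Pfkfb1 for Upk1b (0.971), Vps39 for Lrrn4 (0.983), Bora for Gpm6a (0.968), Gm14276 for Bnc1 (0.970) and Zmat5 for Krt19 (0.925). These are the highest values of a search over all tested genes in 9 points that share libraries and groups, and are given as a description.

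Markers of heart and striated muscle, of fat and of other lung cells moved with these comparisons. Whether the muscle and fat transcripts came from within the lung lobes or from tissue beside them was not tested. Of 9 heart and striated muscle genes 8 were tested, and 6 were lower in Silica (median -0.96) and 8 in Silica + ATL-III (median -1.30) than in Control. Their summed FPKM was 138 to 162 in Control, 66.2 to 96.6 in Silica and 46.9 to 86.0 in Silica + ATL-III. Of 5 adipose genes 3 were tested, and 3 were lower in Silica and 2 in Silica + ATL-III, with sums of 27.5 to 135, 16.6 to 23.1 and 15.4 to 24.9. The adipose sum was highest in Control 3, the highest Control library for 7 of the 8 members. The heart and striated muscle sum was lowest there (138), though Myh6 (8.01 FPKM) and Ckm (4.47) were at their highest Control level there. Within Silica both sums were highest in library 1 (23.1 and 96.6) and lowest in library 2 (16.6 and 66.2). Single genes differed in this. Myl7 (45.7, 22.1 and 28.9 FPKM in Silica 1, 2 and 3) and Nppa (16.5, 5.5 and 8.38) had that order. Myh6 (1.36, 3.13 and 1.65), Tnnt2, Actc1 and Ryr2 were instead lowest in library 1 and highest in library 2. Tnni3, Myl4 and Ckm followed neither order. Cfd had the order of the adipose sum, while Adipoq was highest in library 2 (2.67) and Cidec in library 3 (4.66). Msln, Upk3b, Wt1, Lrrn4, Gpm6a and Bnc1 were lowest in Silica 1 and highest in Silica 2. Within Silica + ATL-III both sums were highest in library 2 (24.9 and 86.0) and lowest in library 3 (15.4 and 46.9). Msln, Upk3b, Upk1b, Wt1, Lrrn4 and Bnc1 were highest in library 1 of that group and lowest in 3. No gene of either list was at 0 in all libraries. Heart and fat of the chest carry mesothelium of their own, and the part of these tissues in the member values was not tested.

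The alveolar type 1 list summed to 2917 to 3379 FPKM in Control, 2480 to 2796 in Silica and 2423 to 2992 in Silica + ATL-III, and of its 10 genes 1 was higher and 2 lower in Silica, and 2 were lower in each comparison of Silica + ATL-III. Gpm6a, which this cell type also makes, was called lower in Silica + ATL-III against Control as well. The airway epithelial list, which summed to 75542 to 82394, 37250 to 83097 and 84520 to 97408 FPKM in Control, Silica and Silica + ATL-III, had 0 of 6 tested genes called in Silica and 2 lower in Silica + ATL-III against Control, beside no call for Krt19. Most of each sum was the single gene Scgb1a1, at 34593 FPKM in Silica 1 against 80317 and 77051 in Silica 2 and 3. Of 4 neutrophil genes 4 were called higher in Silica + ATL-III against both other groups. They summed to 523 to 3772 FPKM in Control, 700 to 4432 in Silica and 29302 to 44801 in Silica + ATL-III. The highest sum was that of Silica + ATL-III 3, the library with the lowest Msln, Upk3b, Upk1b, Wt1, Lrrn4, Krt19 and Bnc1 of its group. Within Silica it was that of library 2, the highest Silica library for Msln, Upk3b, Upk1b, Wt1, Lrrn4, Gpm6a and Bnc1. Within Control it was that of library 2, the lowest Control library for Msln, Upk3b, Lrrn4, Krt19 and Gpm6a. The part of neutrophils in the member values was not tested.

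Other lists also held called genes. Of 5 smooth muscle genes 5 were lower in Silica, 2 were higher in Silica + ATL-III against Silica and 3 lower against Control, with sums of 84.4 to 96.7 FPKM in Control, 45.8 to 56.5 in Silica and 51.6 to 71.0 in Silica + ATL-III. The 4 macrophage genes were all higher in Silica (median 1.61) and in Silica + ATL-III (median 1.01) than in Control, and 2 were lower in Silica + ATL-III than in Silica (sums 38.5 to 45.1, 98.8 to 144 and 77.8 to 92.7). Of 7 alveolar type 2 genes 4 were higher in Silica, and 2 were lower in Silica + ATL-III against Silica, with sums of 21877 to 30136, 27834 to 33576 and 22950 to 30102. Most of each of these sums was the single gene Sftpc (19802 to 30186 FPKM over the 9 libraries). Of 4 endothelial genes 1 was lower in Silica, 2 were higher in Silica + ATL-III against Silica and 1 lower against Control (sums 127 to 142, 70.8 to 99.6 and 96.9 to 159). Of 8 fibroblast genes 2 were lower in Silica, and 1 was higher and 5 lower in Silica + ATL-III against each other group (sums 308 to 342, 265 to 328 and 157 to 205). No gene of these lists was at 0 in all libraries, and the part of these cells in the member values was not tested.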

How the data were processed

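Mouse lung libraries (9, in 3 groups of 3 by the labels' treatment) were read from 1 table of the series. It holds whole-number read counts per gene, deposited without normalization, and FPKM values, computed by the authors, per the file headers. FPKM recomputed from counts, exonic length and column totals matched 100% of deposited values within 0.006. Per the submitters' processing notes, cutadapt 1.9.1, HISAT2 2.0.1, HTSeq 0.6.1 and mm10 were used, with no roles named. Annotation release and strand setting: not given in the sources used here. Gene positions in the table did not match GRCm38, so coordinates are from GENCODE M21.

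The main test was the quasi-likelihood test of edgeR on these counts (R 4.3.3, edgeR 4.0.16), with TMM, all 9 libraries in 1 fit of 3 group means and no covariate, on genes with at least 1 FPKM in at least 3 libraries, with calls at 0.05 after Benjamini-Hochberg adjustment. Wt1 was below that filter and takes its values from the fit after filterByExpr. SE are the log2 fold change over the root of the F statistic. Alternatives were library totals, RLE size factors, DESeq2 1.42.0, limma 3.58.1 on log2(FPKM + 0.1, 0.5 or 1), other filters, the replicate number as a block, the 6 libraries compared alone, and each library left out. The edgeR script was tested on simulated data.

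Part of the results of the retinoic acid list is not reported here. The members and lists were chosen with earlier results of these data known. By the naming rule all members are named, and the 6 genes most like the members. From each list at most 3 called genes per direction by smallest p and 2 by level are named. Lists are named in full only where they bear on a member. Genes outside the rule (Calb2, Muc16, Nkain4, Pkhd1l1, Aldh1a2, Krt7, Krt8, Upk3bl, Wt1os, Nppa, Myh6, Ryr2, Ckm) were chosen after their values were seen. Counts of libraries in a group differed beyond sampling noise (lowest chi-square per degree of freedom 6.44), so none was a copy. Replicate numbers were not taken to pair libraries: deviations from group means correlated at -0.11 to 0.11 between same-numbered libraries.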

Additional observations from a re-analysis of the deposited data

How the results depend on the processing

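With 3 libraries a group, calls of members rested on single libraries. Leaving out each library in turn gave 862 to 3944 called genes in Silica against Control (main 2615; 862 without Control 3 and 865 without Silica 1, 3944 without Silica 2), 1925 to 3877 in Silica + ATL-III against Silica (main 3279; 1925 without Silica + ATL-III 2) and 1474 to 2320 against Control (main 2451; 1474 without Control 3). Members called then ranged from 0 to 3 (main 1), from 0 to 2 (main 1) and from 0 to 3 (main 2). Members called in Silica against Control were 2 with library totals, DESeq2 or filterByExpr (which adds Wt1), 4 with only the 6 libraries compared and 0 with a replicate block. In Silica + ATL-III against Silica they were 0 with limma at each pseudocount, and against Control 1 with the replicate block. The block ended the calls of Upk1b (adjusted p = 0.0573), Wt1 (0.0517) and Lrrn4 (0.0699) and those of Rarres2 in Silica (0.0680) and Silica + ATL-III (0.0508) against Control, and lowered all calls to 2120, 2822 and 2109; the numbers are shared labels only. Without any filter 5, 5 and 4 members were called, but that fit gave 1060 prior degrees of freedom against 5.75, so genes shared nearly 1 spread. Apart from the block and the fits without a library, counts of all genes called in these fits are not given here. The member counts are therefore not read as a result about the members. Signs turned for members that were not called. Krt19 in Silica against Control was -0.10 with library totals and with limma (-0.104, -0.105 and -0.103), -0.00319 with the replicate block, and from -0.181 (without Silica 1) to 0.130 (without Silica 2) with a library left out, also below 0 without Control 2 (-0.105). Bnc1 there ran from -0.926 (without Silica 2) to 0.0715 (without Silica 1), and was 0.0426 without Control 3. In Silica + ATL-III against Silica, Upk3b ran from -0.0653 (without Silica + ATL-III 1) to 0.696 (without 3), and Lrrn4 from -0.650 (without Silica + ATL-III 1) to 0.0441 (without Silica 2), with 0.0382 without Silica + ATL-III 3. Against Control, Upk1b ran from -0.333 (without Silica + ATL-III 1) to 0.0490 (without 3), Bnc1 from -0.190 (without Silica + ATL-III 1) to 0.931 (without Control 3), and Wt1, in fits added after seeing the data, from -0.573 (without Control 1) to 0.299 (without Control 3). The cause was not tested. With library totals the share of calls that were higher was 32.7% in place of 53.8% in Silica and 34.3% in place of 57.6% in Silica + ATL-III, both against Control (33.6% and 35.2% with limma), since the median of all genes moved to -0.11 and -0.13. Wt1 (15 to 164 counts) and Bnc1 (16 to 152) were the members that depth limited most.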
